A study of Mus musculus with 6 samples.

Results

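The 10 transcription factor genes described here belong to the gut mesenchyme and were followed through single-cell RNA profiles of the fetal mouse small intestine. They were Sox6, Tbx3, Tcf21, Twist1, Twist2, Hand1, Hand2, Nkx2-3, Zeb2 and Prrx1, chosen by symbol, and all 10 were found among the 24568 gene symbols of the deposited matrix. Tissue came from Pdgfra-H2BGFP mice on the C57/BL6 strain, which make a nuclear green fluorescent protein from the Pdgfra locus. Pdgfra encodes a receptor for platelet-derived growth factors and marks mesenchymal cells. The labels give 6 samples in 4 groups, all carrying this reporter: E15.5/E16.5 all live cells (2 wells), E15.5/E16.5 enriched cells (1 well), E13.5/E14.5/E18.5 all live cells (2 wells) and E13.5/E14.5/E18.5 enriched cells (1 well). Live cells lacked DAPI and Ter119 staining, and the enriched wells were sorted for CD31, CD45, Epcam or a high PDGFRA reporter signal. Embryos and 2.5 mm gut segments of different ages were pooled in a well and marked with lipid-bound DNA barcodes, which are not used here.

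The matrix pools all 6 samples. Its 13127 cell barcodes carry 6 suffixes without an explanation in the labels, and cells were therefore assigned to no sample, age or sort. The suffixes served as technical sets, named A1, A2 and A3 (suffixes ending in _1) and B1, B2 and B3 (ending in _2). A set is not a replicate, no test was made, and every interval is a 95% interval that covers counting error only. After filtering, 12608 cells remained, 1177 (A3) to 2496 (B2) per set, with median depths of 12127, 13574 and 7070 unique molecular identifiers (UMIs, counted transcript molecules) in A1, A2 and A3 and 4184, 4112 and 3548 in B1, B2 and B3. Shares of cells and all pairings of genes were therefore taken after thinning each cell to 2000 UMIs, which left out 41 shallower cells. Few barcode sequences (22) occurred in more than 1 set.

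Summed markers read as mesenchyme in all sets. The 7 mesenchyme markers (Col1a1, Col1a2, Col3a1, Pdgfra, Pdgfrb, Vim, Sparc) summed to between 4980 (B3) and 8800 (B2) UMIs per 1000000 (CPM), whereas 8 epithelial markers summed to 43.6 to 374 CPM, 8 endothelial markers to 10.1 to 68.5 CPM and 8 myeloid markers to 19.9 to 140.0 CPM, each highest in A3 and with none of these markers at 0 in any set. Leaving out cells with 3 or more markers of 1 other lineage (erythroid genes not counted) kept 666 of 1177 cells in A3. It kept 2335 of 2459 in A1, 1966 of 2083 in A2, 2173 of 2211 in B1, 2458 of 2496 in B2 and 2152 of 2182 in B3. The main results include such cells. A3 and B3 stood apart from the other sets of their endings. Pdgfra was at 940 CPM in A3 against 172 and 129 CPM in A1 and A2, and at 407 CPM in B3 against 105 and 113 CPM in B1 and B2. The 10 cycling genes summed to 1030 CPM in A3 against 2170 and 2070 CPM, and to 508 CPM in B3 against 1570 and 1440 CPM. RNA of enterocytes (5 genes) reached 2330 CPM in A3 and haemoglobin RNA (6 erythroid genes) 3780 CPM in B3, against 492 and 472 CPM in A1 and A2 and 1860 and 1810 CPM in B1 and B2. Each comparison of sets below runs along all of these differences at once, and their part in it was not tested. Fewer expressing cells and less RNA per cell cannot be told apart in a UMI sum per set, nor in a share of cells with a UMI, which falls with both.

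As background, the gut tube is wrapped in mesenchyme that descends from the splanchnic mesoderm and forms fibroblasts, smooth muscle, pacemaker cells and the PDGFRA-high cells beneath the epithelium. Twist1, Twist2, Tcf21, Hand1 and Hand2 are basic helix-loop-helix (bHLH) factors, which bind the E-box motif CANNTG as dimers with E proteins such as Tcf3, Tcf4 and Tcf12, and Id proteins hold those partners away from DNA. Sox6 is an HMG-box factor of the SoxD group, Tbx3 a T-box repressor, Nkx2-3 an NK homeobox factor needed for normal gut and spleen mesenchyme, Zeb2 a zinc-finger repressor known from epithelial-mesenchymal transition, and Prrx1 a homeobox factor of limb and craniofacial mesenchyme.

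On the build the authors' notes name as mm10 (RefSeq positions on GRCm38.p6), the HMG-box, T-box, homeobox and zinc-finger genes lie at chr7:115470872-116040776 (Sox6), chr5:119670534-119684724 (Tbx3), chr19:43612325-43615892 (Nkx2-3), chr2:44983512-45117442 (Zeb2) and chr1:163245119-163315145 (Prrx1). The bHLH genes lie at chr12:33957671-33959831 (Twist1), chr1:91801461-91848034 (Twist2), chr10:22817263-22820143 (Tcf21), chr11:57828713-57832147 (Hand1) and chr8:57320983-57324517 (Hand2). Because the bHLH members bind E-boxes, the 250 bases before annotated transcript starts in RefSeq were searched for CANNTG, a pattern that reads the same on both strands. Such letters occur in 66.2% of 32851 mouse promoter windows and at least 2 in 31.8%, so a match describes the sequence and no more. Windows were at hand for 8 of the 10 genes. The 5 printed here belong to the genes whose levels the results turn on, 5′ to 3′ on the gene's strand in lower case with E-box letters in capitals. For Sox6 (chr7:116038745-116038994, minus strand) and Zeb2 (chr2:45117443-45117692, minus) the window nearest the 5′ end of the gene is shown, and the others are Tcf21 (chr10:22820144-22820393, minus), Nkx2-3 (chr19:43612075-43612324, plus) and Hand2 (chr8:57320733-57320982, plus).
Sox6: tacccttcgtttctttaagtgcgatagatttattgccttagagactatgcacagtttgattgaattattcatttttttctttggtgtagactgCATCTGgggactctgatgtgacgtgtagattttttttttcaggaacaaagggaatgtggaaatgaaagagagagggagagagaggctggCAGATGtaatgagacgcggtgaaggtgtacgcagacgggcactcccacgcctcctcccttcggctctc
Tcf21: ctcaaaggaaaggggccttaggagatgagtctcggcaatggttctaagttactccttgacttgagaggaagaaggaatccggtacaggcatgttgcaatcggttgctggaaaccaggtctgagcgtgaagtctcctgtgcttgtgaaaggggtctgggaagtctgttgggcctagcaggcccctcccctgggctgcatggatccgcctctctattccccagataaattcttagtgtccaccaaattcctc
Zeb2: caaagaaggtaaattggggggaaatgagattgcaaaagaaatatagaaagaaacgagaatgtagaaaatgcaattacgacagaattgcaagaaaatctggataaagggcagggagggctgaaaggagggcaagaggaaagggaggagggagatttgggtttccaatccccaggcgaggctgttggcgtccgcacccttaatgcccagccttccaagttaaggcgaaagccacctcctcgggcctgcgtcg
Nkx2-3: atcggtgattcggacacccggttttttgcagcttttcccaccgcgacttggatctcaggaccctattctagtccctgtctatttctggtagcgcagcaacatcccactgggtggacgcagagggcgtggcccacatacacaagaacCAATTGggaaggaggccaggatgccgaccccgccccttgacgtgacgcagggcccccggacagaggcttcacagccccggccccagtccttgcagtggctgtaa
Hand2: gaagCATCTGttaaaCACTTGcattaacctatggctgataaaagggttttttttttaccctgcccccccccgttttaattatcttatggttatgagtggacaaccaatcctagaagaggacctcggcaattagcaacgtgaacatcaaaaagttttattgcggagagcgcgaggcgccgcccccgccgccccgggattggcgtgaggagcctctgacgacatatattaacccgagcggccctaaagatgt
The Sox6 window holds CATCTG and CAGATG, the Hand2 window CATCTG and CACTTG, and the Nkx2-3 window CAATTG. The windows of Tcf21 and Zeb2 hold no E-box letters, and neither do those of Twist1, Twist2 and Prrx1, which are not printed.

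Sox6 had the widest range over the sets of any of the 10 genes above the 20 CPM used as a minimum. Its level was 4.08, 2.96 and 127 CPM in A1, A2 and A3 and 11.7, 14.8 and 80.5 CPM in B1, B2 and B3. A3 and B3 were each far above the other sets, and the share of cells with a Sox6 UMI at 2000 UMIs followed, at 0.977%, 0.768% and 23.3% in ending A and 2.87%, 2.98% and 15.8% in ending B (unthinned 3.78% in A1 and 3.55% in A2). The log2 ratio of A3 to A1 and A2 together was 5.17 (4.96 to 5.39), and that of B3 to B1 and B2 was 2.59 (2.39 to 2.80). The measured distance between A2 and A1, at -0.46 (-0.88 to -0.05), and between B2 and B1, at 0.34 (-0.01 to 0.69), gives the spread between sets of similar depth. No class of cells that lacks these genes was separated, so the share of cells that free RNA alone would give was not measured.

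Tbx3 moved the same way with a higher floor. It stood at 26.5, 24.4 and 226 CPM in A1, A2 and A3 and at 26.7, 27.0 and 96.9 CPM in B1, B2 and B3. The 4 lower sets lay within 3 CPM of each other. Cells with a Tbx3 UMI made up 36.4% of A3 (33.6 to 39.2) and 16.6% of B3 (15.1 to 18.3), against 5.31% to 5.90% elsewhere. The log2 ratios were 3.15 (3.05 to 3.24) in ending A and 1.85 (1.69 to 2.01) in ending B.

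Tcf21 and Zeb2 were ordered the other way. Tcf21, a bHLH factor of visceral mesoderm, was at 362, 352 and 112 CPM in A1, A2 and A3 and at 105, 111 and 25.7 CPM in B1, B2 and B3. It also differed between the endings, since A3 and the first sets of ending B were at about one level, and the different gene lists of the endings cannot be told apart from a difference in level. Cells with a Tcf21 UMI made up 51.0%, 50.5% and 14.4% of A1, A2 and A3 and 17.6%, 18.1% and 4.42% of B1, B2 and B3. Within the endings the log2 ratios were -1.67 (-1.77 to -1.58) and -2.07 (-2.28 to -1.87). Zeb2 was at 625, 627 and 189 CPM in ending A and at 726, 668 and 130 CPM in ending B. The 4 higher Zeb2 sets did not overlap with A3 and B3, and the log2 ratios were -1.73 (-1.79 to -1.66) and -2.42 (-2.51 to -2.33). Cells with a Zeb2 UMI at matched depth made up 58.5% to 67.9% of those 4 sets, 24.9% of A3 and 19.9% of B3.

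Nkx2-3 was the most even of the 10 genes. Its level was 474, 464 and 451 CPM in A1, A2 and A3 and 504, 471 and 411 CPM in B1, B2 and B3, and 47.8% (B3) to 55.8% (A2) of cells held a UMI at matched depth. The log2 ratios were -0.06 (-0.11 to -0.01) in ending A and -0.24 (-0.30 to -0.19) in ending B, the latter beyond the -0.10 between B2 and B1. In ending A the sign depended on scaling, with 0.01 when levels were scaled by the median ratio over genes. This evenness sat beside Sox6, Tbx3, Tcf21 and Zeb2, which were each more than 2-fold apart in both endings.

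**Figure D1:**
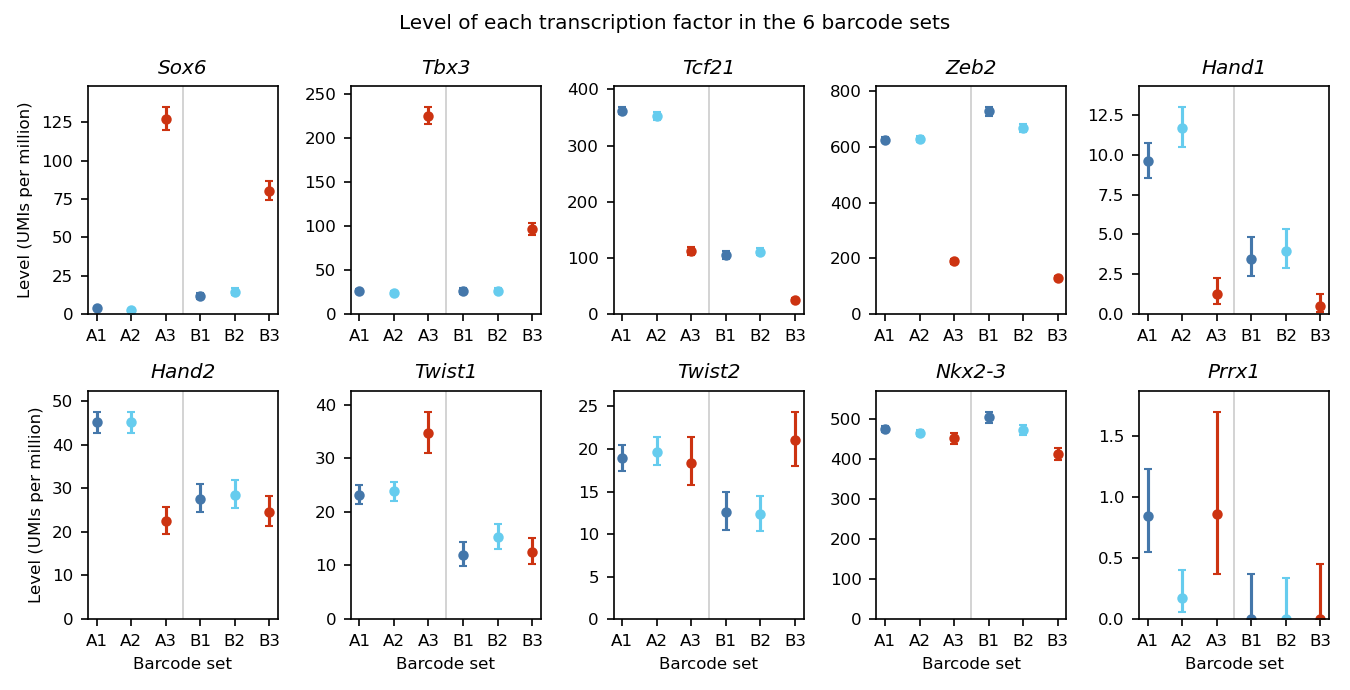
CPM (linear axis from 0, a separate scale per gene) of each transcription factor in the 6 barcode sets, with exact 95% Poisson intervals as bars. Sox6 and Tbx3 are highest in A3 and B3, Tcf21 and Zeb2 lowest in A3 and B3 within their endings, and Nkx2-3 stays between 411 and 504 CPM.

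The remaining bHLH genes were low and did not move as a block with Tcf21. Hand2, a factor of heart, limb and enteric neuron development that is also made in gut mesenchyme, was at 45.1, 45.1 and 22.5 CPM in A1, A2 and A3 and at 27.6, 28.5 and 24.6 CPM in B1, B2 and B3. Its log2 ratio was -1.0 (-1.21 to -0.80) in ending A, which sits on the 2-fold line and drops inside it when levels are scaled by the median ratio, and -0.19 (-0.43 to 0.04) in ending B. Enteric neuron markers, another source of Hand2, were low throughout and lower in A3 and B3. The 8 markers summed to 7.64 and 5.14 CPM there against 42.4 to 108 CPM in the other sets, with Elavl3 and Tubb3 among those at 0 in B3, and their part in the Hand2 values was not tested. Hand1 was rarer, at 9.58, 11.7 and 1.29 CPM in A1, A2 and A3 and at 3.48, 3.97 and 0.489 CPM in B1, B2 and B3. Its log2 ratios were -3.04 (-4.00 to -2.22) and -2.93 (-4.84 to -1.52), resting on 12 UMIs in A3 and 4 in B3, and with all sets under 20 CPM it was not called.

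Twist1 and Twist2, close relatives with overlapping roles in mesenchyme, stayed under 2-fold within the endings. Twist1 was at 23.2, 23.8 and 34.7 CPM in A1, A2 and A3 (log2 ratio 0.56, 0.38 to 0.74) and at 12, 15.4 and 12.5 CPM in B1, B2 and B3 (-0.14, -0.48 to 0.19). Twist2 was at 18.9, 19.7 and 18.4 CPM in ending A (-0.07, -0.31 to 0.17) and at 12.6, 12.3 and 21 CPM in ending B (0.76, 0.47 to 1.04). A3 was thus the highest set for Twist1 and B3 for Twist2, and neither gene reached 2-fold in either ending.

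Prrx1 was near the limit of detection. Ending A held 26, 5 and 8 UMIs in A1, A2 and A3, or 0.842, 0.174 and 0.861 CPM, and ending B held 0 UMIs in any set, which allows up to 0.298, 0.271 and 0.367 CPM (3 counts of the total). The endings were counted over different symbols (21351 and 18222, with 17403 shared), so a gene absent from the list counted in ending B and a gene without transcripts there cannot be told apart. Prrx1 enters none of the comparisons that follow.

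Over the group, 7 genes reached 20 CPM on the higher side in ending A and 7 in ending B. In ending A 2 were at least 2-fold higher in A3 (Sox6, Tbx3), where 9.64% of 7417 genes were, and 3 were lower (Tcf21, Zeb2, Hand2), where 5.61% of all genes were. In ending B 2 were higher in B3, the same genes, against 8.62% of 6413 genes, and 2 were lower (Tcf21, Zeb2), against 5.41%. Both endings together called 6.19% of 6127 genes higher and 3.25% lower. The first and the second set of an ending, A1 with A2 and B1 with B2, were 2-fold apart for none of the 10 genes above the minimum and for 0.0148% (higher) and 0.193% (lower) of the 6736 genes tested in ending A and for 0% of 5706 in ending B. The median log2 ratio over all genes was -0.05 in ending A and 0.12 in ending B. Without cells that held 3 or more markers of 1 other lineage (erythroid genes not counted) the numbers of genes called were the same, 5 and 4.

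**Figure D2:**
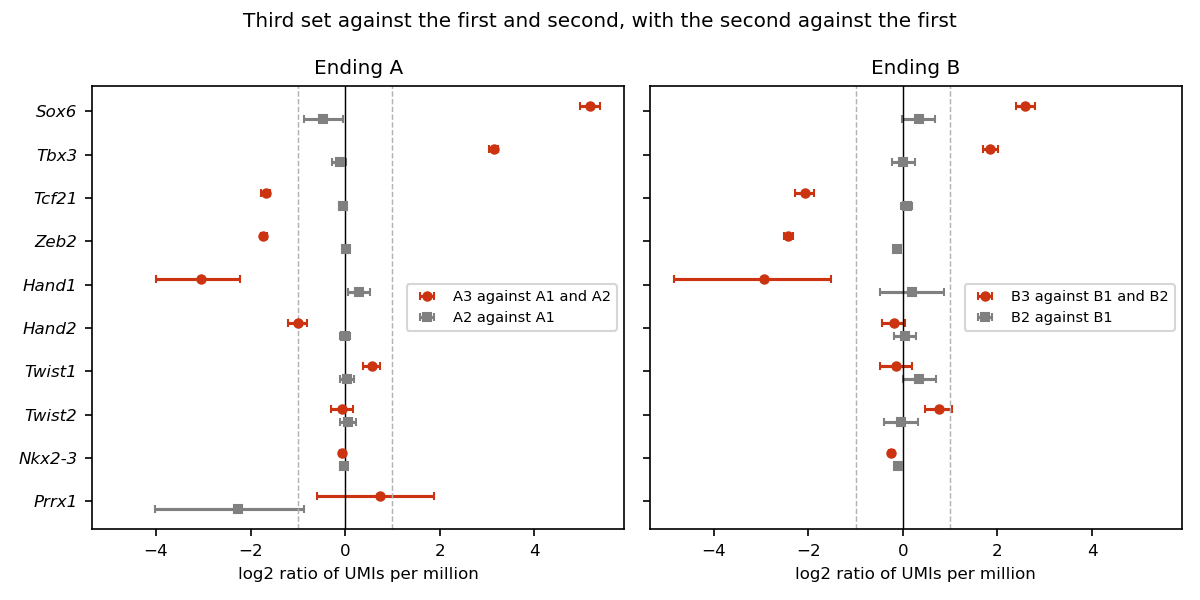
Log2 ratio of CPM of each transcription factor, A3 against A1 and A2 (left) and B3 against B1 and B2 (right) as circles, and the second set against the first as squares, with exact 95% counting intervals; dashed lines mark 2-fold. Sox6 and Tbx3 lie right of the lines and Tcf21, Zeb2 and Hand1 left of them in both panels, and the squares of the genes above 20 CPM lie near 0.

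The contrast was also present among cells in which no Pdgfra UMI was seen. In that bin (238 cells of A3 and 1028 of B3 against 3435 and 3789 of the other sets) the Sox6 log2 ratio was 5.02 (4.23 to 5.86) in ending A and 3.13 (2.75 to 3.53) in ending B, and that of Tbx3 was 2.72 (2.34 to 3.08) and 1.91 (1.59 to 2.22). Tcf21 was at -1.40 and -2.14 there and Zeb2 at -1.44 and -2.43, whereas Hand2 was at -0.11 (-0.89 to 0.57) and -0.01 (-0.48 to 0.44). In ending A Hand2 was lower in A3 with 1 (-1.08, -2.01 to -0.26) and 2 Pdgfra UMIs (-2.3, -3.91 to -0.92). With 3 or more it was at -4.2 (-6.75 to -2.14), on 3 UMIs in A3 and 8 in A1 and A2. In ending B Hand2 was at -0.05, -0.21 and 0.97 in these bins, with intervals that include 0. With 3 or more Pdgfra UMIs the sets were closer together for Sox6 and Tbx3. Sox6 was at 226 CPM in A3 against 103 CPM in A1 and A2 (log2 ratio 1.13, 0.29 to 2.11) and at 119 CPM in B3 against 121 CPM in B1 and B2 (-0.03, -0.91 to 0.90). Tbx3 was at 316 against 138 CPM in ending A and at 119 against 164 CPM in ending B (-0.47, -1.27 to 0.36). Tcf21 was not closer in ending A, at -2.18 (-2.92 to -1.43), and Zeb2 was at -1.11 (-1.66 to -0.54). In ending B the sets were closer together for Zeb2 too, at -0.59 (-1.37 to 0.22) against -2.43 with 0 Pdgfra UMIs. Tcf21 was at -1.84 (-4.06 to 0.14) in ending B, on 4 UMIs in B3 and 7 in B1 and B2. The few cells of the first and second sets with many Pdgfra UMIs, 58 in ending A and 70 in ending B, thus carried Sox6 and Tbx3 at levels far above the rest of those sets. At 2000 UMIs a cell without a Pdgfra UMI may still make the transcript, so the bins are not classes of cells.

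Levels were next followed with Pdgfra UMIs inside single sets, so that differences between sets do not enter. Enough cells (50) with 3 or more and with 0 Pdgfra UMIs were present in A3 and B3 only. Sox6 was at 94.5 CPM with 0 and 226 CPM with 3 or more Pdgfra UMIs in A3 and at 93.9 and 119 CPM in B3, with ratios of 2.39 and 1.27 and a ratio of 1.88 over both sets (1.56 to 2.27). Intervals of ratios over both sets are approximate, and for Sox6 the ratio of each single set lies outside the interval. Tbx3 was at 191 and 316 CPM in A3 and at 83.7 and 119 CPM in B3, with ratios of 1.65 and 1.42 and 1.59 over both (1.34 to 1.89). Tcf21 was at 145 and 51.2 CPM in A3 and at 26.3 and 14.0 CPM in B3, with 0.377 over both (0.264 to 0.539), where the last value rests on 4 UMIs. These 3 genes passed the line of 1.5-fold with one direction in both sets, 2 higher where 8.45% of 7030 genes were and 1 lower where 5.66% were. The sizes rest partly on A3. In ending B alone, a new draw of the thinning, Sox6 came to 1.33, which is under the line, and Tcf21 to 0.654. Zeb2 was at 0.687 (0.567 to 0.832) over both sets, just inside the line, at 0.600 in A3 and 0.873 in B3. A new draw without A3, which leaves B3 alone, gave 1.18, and no direction is read for Zeb2 in B3. Nkx2-3 was at 1.13 over both sets. The ratios of Twist1, Twist2 and Hand2 lay on opposite sides of 1 in A3 and B3. Hand2 was at 3.75 CPM in A3 cells with 3 or more Pdgfra UMIs, which is 3 UMIs in 400 cells, and no change is read from it.

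With 2 or more Pdgfra UMIs set against 0, a comparison chosen after seeing the data, all 6 sets had enough cells. The Sox6 ratio was above 1 in 6 of 6 sets, from 1.01 in B3 to 16.2 in A1 and 1.81 over all sets. No difference is read from the value of B3. Sox6 was at 93.9, 82.5, 82.8 and 119 CPM there with 0, 1, 2 and 3 or more Pdgfra UMIs. Tbx3 was higher in 6 of 6 sets, from 1.42 in B3 to 4.94 in B1 and 1.84 over all sets. Tcf21 was lower in 6 of 6 sets (0.327 in B2 to 0.895 in A1, 0.689 over all, short of the 1.5-fold line), and Zeb2 in 5 of 6 (0.278 in B1 to 1.04 in A2, 0.583 over all). Nkx2-3 stayed at 1.04. Hand2 was at 0.998 over all sets, with set values from 0.186 in A3 to 2.36 in A2. The ratios of Sox6 and Tbx3 were smallest in the sets where both genes were already high among cells with 0 Pdgfra UMIs. For other genes, cells with 3 or more Pdgfra UMIs were set against cells with 0 in A3 and B3, as above. Of 5 epithelial markers with at least 20 CPM, Epcam alone was called there (1.88), while Krt8 (0.829), Krt18 (1.05), Krt19 (1.14) and Cldn7 (1.20) were not. Of the listed genes, those higher in cells with 3 or more Pdgfra UMIs were also Tbx3os1 (2.18), Bmp2 (1.92), Msc (1.81), Runx1 (1.77), Smad6 (1.67), the contractile gene Synpo2 (1.63) and Bmp5 (1.54). The cycling genes were among those lower, all 10 of them, with Top2a at 0.167. Among cells with no cycling UMI the ratios came to 1.49 for Sox6 and 1.24 for Tbx3, and without cells that held 3 or more markers of 1 other lineage (erythroid genes not counted) to 1.5 and 1.47, so that both Tbx3 values, and the Sox6 value without cycling UMIs, were under the 1.5-fold line.

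**Figure D3:**
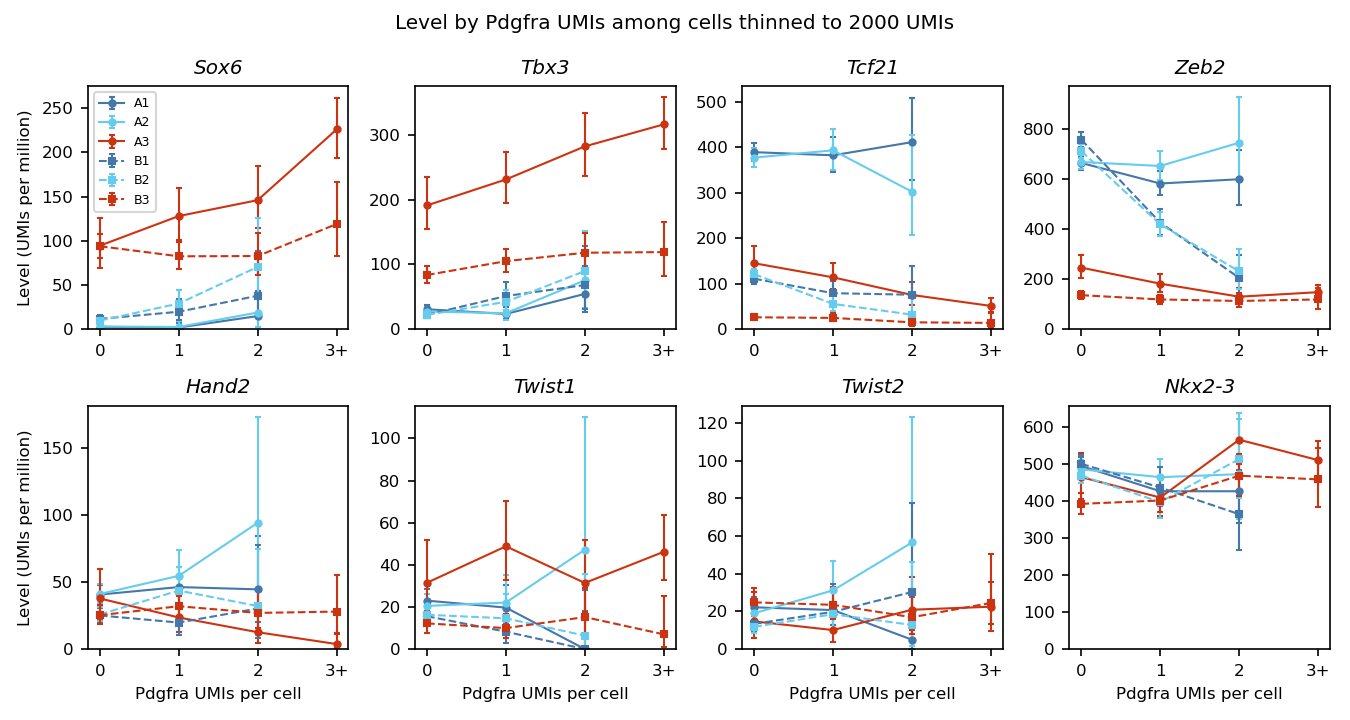
CPM (linear axis from 0) of 8 transcription factors in cells with 0, 1, 2 and 3 or more Pdgfra UMIs after thinning, 1 line per barcode set (solid for ending A, dashed for ending B), with exact 95% Poisson intervals and only bins of at least 50 cells. Sox6 and Tbx3 climb with Pdgfra in A3, Tcf21 declines in A3, and Nkx2-3 runs level.

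Whether the factors share cells was asked pair by pair. For each pair the number of cells with a UMI of both genes at 2000 UMIs was divided by the number expected if the genes were independent within each set, so that differences between sets do not enter. A pair was called if the ratio was at most 0.8 or at least the inverse of 0.8, with at least 20 expected cells and one side of 1 in all 6 sets. Rare genes left few expected cells in single sets, such as 0.86 in A1 and 0.638 in A2 for Sox6 with Twist1. A ratio above 1 in all 6 sets is hard to reach there. Common genes meet a ceiling, since in a set the ratio cannot exceed the inverse of the larger share of cells. With any gene, Nkx2-3 and Zeb2 were called more often in 0.215% and 0.240% of pairs, and Tbx3 in 1.78%. Sizes of ratios are therefore not compared between common and rare genes. Of 45 pairs 30 had enough expected cells, 0 were called more often together and 1 less often, where 0.725% and 1.40% of 74730 pairs of these genes with any gene were called. The one pair was Sox6 with Zeb2, found together in 183 cells where 245 were expected, a ratio of 0.747 with set values from 0.287 in B1 to 0.954 in A3. The call is fragile: another random draw gave 0.679 but with a set on the other side of 1, and over the alternatives tried the number of called pairs ran from 0 to 3. With called doublets kept, the pair called was Sox6 with Tbx3 (1.27, more often) and not Sox6 with Zeb2.

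Several ratios had one direction in all 6 sets without reaching the line. Sox6 and Tbx3 shared 203 cells where 166 were expected, a ratio of 1.22, from 1.05 in A3 to 4.65 in A2, and over the alternatives tried the ratio lay between 1.12 and 1.29. Tcf21 and Zeb2 shared 2362 cells (1.12, from 1.04 to 1.36), Nkx2-3 and Zeb2 3757 cells (1.06, from 1.03 to 1.15), and Hand2 and Nkx2-3 335 cells (0.841, from 0.760 to 0.952). Sox6 and Tcf21 had the lowest ratio of all, 0.643, with 64 cells where 99.5 were expected, but it was above 1 in B3 and came to 1.04 at 1000 UMIs per cell. Twist1 and Tbx3 had the highest, 1.35, with 72 cells where 53.5 were expected. It was 1.57 in A3 but below 1 in A1 (0.77) and A2 (0.672), and it came to 0.991 without the 5% of cells with the most UMIs. One-sidedness did not hold in every setting: Sox6 with Tbx3 had a set below 1 without A3 (0.955), and Hand2 with Nkx2-3 had a set above 1 with doublets kept (1.08) and without A3 (1.31), with ratios from 0.826 to 0.994 over the alternatives. The closely related Twist1 and Twist2, and Hand1 and Hand2, were too rare for a ratio. A thinned cell held 1.63 ± 1.02 of the 10 genes (mean and SD over 12567 cells), from 1.17 in B3 to 1.99 in A2, and 13.9% of cells held none.

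**Figure D4:**
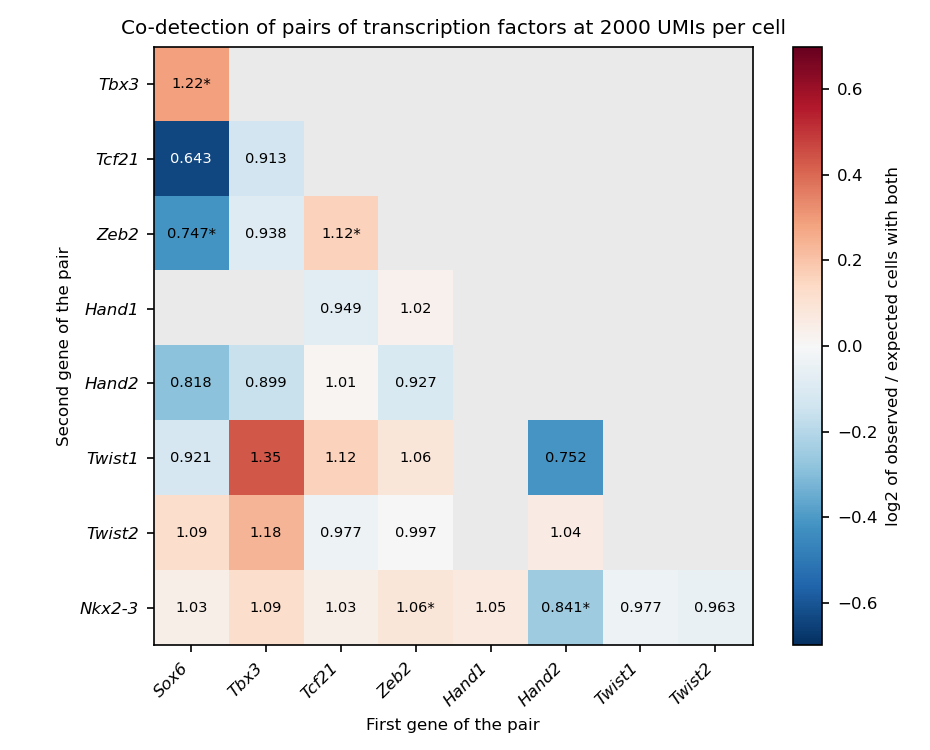
Observed over expected cells with both genes for the pairs of 9 transcription factors with at least 20 expected cells, written in each square and coloured by its log2; grey squares were not computed and an asterisk marks one side of 1 in all 6 sets. Twist1 with Tbx3 (1.35) is highest but has no asterisk. Sox6 with Tbx3 (1.22) and Tcf21 with Zeb2 (1.12) are above 1, and Sox6 with Zeb2 (0.747) is below.

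The partners of each gene outside the group were ranked by the same ratio among genes found in at least 10% of cells, with one direction in all 6 sets. Npnt, which encodes the integrin ligand nephronectin, stood first for Sox6 (1.43, 303 cells against 211 expected), for Tbx3 (1.59, 460 against 290) and for Nkx2-3 (1.24, 873 against 701). Sox6 was further found with Rlf (1.39) and Plk2 (1.39), and least with Rgs5 (0.307), a pericyte gene, and Prc1 (0.321), which acts in cell division. Tbx3 was found with the protocadherin gene Fat4 (1.47) and with Foxq1 (1.47), and least with the matrix gene Ogn (0.435) and Svil (0.501). Nkx2-3 was found with the chemokine gene Ccl11 (1.20) and with Fat4 (1.18), and least with the growth arrest gene Gadd45a (0.692) and Cobl (0.816).

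Tcf21 and Zeb2 had partners in common. Tcf21 was led by the chemokine gene Cxcl13 (1.33), Ogn (1.32) and Fibin (1.31), and Zeb2 by Ogn (1.24), Cxcl13 (1.23) and Aspn (1.23), a small proteoglycan gene. The lowest ratios were those of the growth factor gene Fgf9 (0.479) and the laminin gene Lama5 (0.501) for Tcf21 and of Gadd45a (0.574) and Fgf9 (0.575) for Zeb2. Ogn, first for Zeb2, was thus last for Tbx3. Hand2 was found with Gas1 (1.57), a Hedgehog co-receptor, with the semaphorin receptor gene Nrp2 (1.47) and with Ptn (1.38), and least with Igf1 (0.530) and Ccl11 (0.538). Twist1 was found with Erlec1 (1.38), the matrix gene Postn (1.37) and 1110065P20Rik (1.37), and least with Ccl11 (0.463) and Gadd45a (0.542). Twist2 was found with Fibin (1.48), Map1b (1.36) and Spin1 (1.36), and least with the BMP receptor gene Bmpr1a (0.622) and Uvrag (0.631). For Hand1, with fewer genes to rank (1690 against 2933), the leading genes Gtpbp4 (1.70), Mtdh (1.31) and Ndufs7 (1.3) rest on 37 to 67 cells, and the lowest were Aebp1 (0.389) and Arpc1b (0.507). These ranks depend on the measure: ranked by the phi coefficient instead, 20 of the 45 named partners came up again.

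Genes of known roles were then read from lists. Sox6 was found less often than expected with 8 of the 10 cycling genes, with ratios from 0.330 (Mcm5) to 0.762 (Pcna) among those called, where 2.87% of 7852 genes were called less often. It was also less often with 4 of 6 fibroblast matrix genes (Col14a1 0.354, Dcn 0.486, Fbln1 0.595, Lum 0.656) and with Gli3 (0.658), Meis1 (0.705) and Meis2 (0.710), and more often with Klf4 (1.36) and Bmp2 (1.34), where 1.60% of genes were more often. Tbx3 was more often with Runx1 (1.40), Hhip (1.38), which binds Hedgehog ligands, Id2 (1.33), Bmp5 (1.29) and Smad7 (1.26), against 1.78% of 9430 genes. It was less often with Ogn, Col14a1 (0.625), Fbln1 (0.754), Ccnb2 (0.731) and Mcm5 (0.607), against 2.01%.

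Tcf21 and Zeb2 were called with other genes. Tcf21 was more often with 3 fibroblast matrix genes, Dpt (1.37), Ogn (1.32) and Aspn (502 shared cells), where 0.280% of 11409 genes were, and less often with Bmp2 (0.672), Bmp3 (0.683), Bmp7 (0.674), Foxl1 (0.657), Runx1 (0.657) and Ednrb (0.747), where 1.48% were. Zeb2 was less often with Bmp2 (0.645), Bmp7 (0.653), Bmp3 (0.665), Snai1 (0.740), Ednrb (0.793) and Foxl1 (0.794), against 1.01% of 12497 genes, and more often with Isl1 (1.28), against 0.240%. Neither was called with any of the 10 cycling genes. Hand2 was more often with Mcm6 (1.33), against 0.811% of 7642 genes, and less often with Ebf1 (0.485) and Foxf2 (0.783), against 1.37%. Nkx2-3 was less often with Dpt (0.734), Mgp (0.772) and Cldn5 (0.792), against 0.310% of 12569 genes, and with no listed gene more often, against 0.215%. Hand1 was less often with Lum (0.778), against 1.46% of 1710 genes. Twist1 and Twist2 were called with 0 listed genes in either direction, where 0.803% and 0.814% of their pairs were called more often and 1.76% and 1.12% less often.

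**Figure D5:**
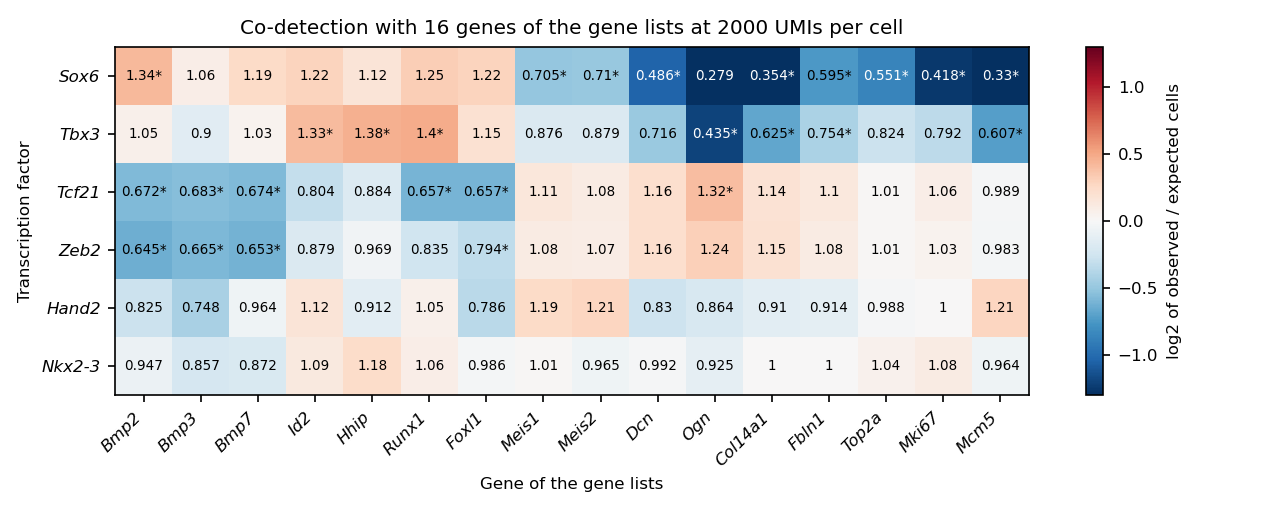
Observed over expected cells for 6 transcription factors (rows) with 16 genes of the gene lists (columns, picked after their values were seen), written in each square and coloured by its log2; an asterisk marks a called pair. The rows of Sox6 and Tbx3 are below 1 with Ogn, Col14a1 and Fbln1, while the rows of Tcf21 and Zeb2 are above 1 with them and below 1 with Bmp2, Bmp3 and Bmp7.

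Another 45 transcription factors of gut mesenchyme were read the same way for the sets. In ending A 29 reached 20 CPM, 11 of them at least 2-fold higher in A3 and 8 lower (9.64% and 5.61% over all genes), with a median log2 ratio of -0.02. In ending B 28 reached it, 12 higher in B3 and 4 lower (8.62% and 5.41% over all genes), with a median of 0.70. The list includes Tcf4 and the Id genes described below. Runx1, a factor of blood and mesenchyme, was furthest, at 6.93, 8.53 and 123 CPM in A1, A2 and A3 (log2 ratio 4.00) and at 27.4, 27.4 and 138 CPM in B1, B2 and B3 (2.33). Msc, which encodes the bHLH factor musculin, was at 7.22, 6.30 and 35.5 CPM in ending A (2.39) and at 6.46, 5.87 and 24.5 CPM in ending B (1.99). Sox5, the SoxD relative with which Sox6 can form dimers, was at 32.2, 31.3 and 106 CPM in ending A (1.74) and at 32.4, 36.3 and 127 CPM in ending B (1.88). Zeb1, the relative of Zeb2, went opposite to it, at 41.1, 41.5 and 122 CPM in ending A (1.57) and at 40.7, 40.0 and 111 CPM in ending B (1.47). Among those lower in A3 and B3 were Nr2f1 (-2.77 and -2.16), Meis1 (-2.04 and -1.01), Snai2 (-1.63 and -1.57) and Hlx (-1.34 and -1.36).

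Of 7 dimer partners and Id inhibitors of the bHLH factors, 4 were at least 2-fold higher in A3 and 1 lower, where 9.64% and 5.61% of all genes were, and in ending B 4 of 6 were higher and 0 lower, against 8.62% and 5.41%. Tcf4, the only E protein called, was at 402, 347 and 1900 CPM in A1, A2 and A3 (log2 ratio 2.34) and at 1150, 1200 and 2860 CPM in B1, B2 and B3 (1.29). The inhibitors Id2 (2.66 and 2.17), Id1 (1.87 and 1.59) and Id3 (1.22 and 1.05) were at least 2-fold higher in both endings, whereas Id4 was lower, at -1.67 in ending A and -1.70 in ending B, where it was under 20 CPM in all sets and not called. The E proteins Tcf3 (-0.77 and 0.07) and Tcf12 (-0.12 and 0.45) were inside the 2-fold line. Antisense genes gave a mixed picture. Tbx3os1 was higher in A3 and B3 (19.1 against 1.36 and 2.37 CPM, and 30.3 against 5.67 and 8.67 CPM), as Tbx3 was, but under 20 CPM in ending A and called in ending B alone. Hand2os1 was at 25.3, 26.3 and 7.32 CPM in ending A, as Hand2 was. It was at 0 in ending B, where, as for Prrx1, a symbol missing from the list counted there cannot be told apart from absent transcripts. Because strand handling in the counting is not given in the sources used here, reads of a gene and its antisense partner may not be fully separate.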

How the data were processed

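The data are single-cell RNA profiles of fetal mouse small intestine made with MULTI-seq and the 10x 3' v3 chemistry, with 35000 cells loaded per well, per the labels' protocols. The submitters' processing notes name Cell Ranger 2.1.1, Seurat and mm10, without roles. Annotation, strand handling and any earlier filter on cells are not given there. The authors deposited 1 matrix of raw UMI counts, 24568 symbols by 13127 barcodes with 100735249 UMIs, per the file headers and the values, which are whole numbers. No label maps barcode suffixes to samples, so the matrix was treated as 1 sample and suffixes as technical sets. The 10 genes, their comparisons and all gene lists were chosen with earlier results of these data known.

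Cells with fewer than 1000 genes (108) or over 5% mitochondrial UMIs (367) were left out, and 84 doublets called by Scrublet in scanpy 1.11.5 were removed. It marked only 0.404% of the 5940 cells of ending A, so it is not relied on there and doublets may remain. UMIs were summed per set and scaled to CPM. Poisson intervals for CPM, conditional binomial intervals for log2 ratios and Clopper-Pearson intervals for shares are exact (scipy 1.17.1). With 1 pooled matrix and no replicates, no count model was fitted. Levels are UMIs of 3' ends and were not compared between genes. A gene was called between sets with at least 20 CPM on the higher side and a 2-fold ratio. Pairs and Pdgfra bins used cells thinned to 2000 UMIs. The ratio over sets in the Pdgfra comparison is a Mantel-Haenszel rate ratio, called at 1.5-fold or 0.667 with at least 20 CPM. Its interval is not exact. The width is that of a conditional binomial interval for UMIs summed over A3 and B3, laid evenly around the ratio on the log2 scale. It does not cover a difference between those sets. Partners named are the 3 genes with the highest and the 2 with the lowest ratio among genes in at least 10% of cells, counted in both endings and with one direction in all 6 sets. Of the other transcription factors, the called genes with the largest ratios were to be named, and Runx1, Id2, Msc, Tcf4, Nr2f1 and Meis1 are. Other genes of the lists named in the text were picked after their values were seen.

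On simulated data, 4-fold changes of 200 genes were recovered for 99.5% of them in ending A (6606 genes) and 100% in ending B (5598 genes). Pair ratios of 1.5 were recovered for 97.5% of 200 linked genes (600 genes). Between Pdgfra bins 3-fold changes were recovered for 97.0% (6284 genes), where 4.55% of unchanged genes were also called. The simulated pairs used a gene found in more cells than Sox6, Twist1, Twist2, Hand1 and Hand2 were in most sets. Recovery for such rare genes, and for Pdgfra ratios as small as 1.59 and 1.88, was not measured. Alternatives varied the cell and doublet filters, cells of high depth, other lineages or cycling, scaling, minimum level, thinning depth and seed, and the sets used.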

Additional observations from a re-analysis of the deposited data

Results flagged for a closer look

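In 4 results the third set lay on one side of both other sets in one ending and on the opposite side in the other, or A3 and B3 had ratios on opposite sides of 1. None of these differences was tested, and the sets are not samples. The log2 ratio of Twist2 for the third set against the first and second was -0.07 in ending A, with an interval that includes 0 (-0.31 to 0.17), and 0.76 in ending B. Twist1, at 0.56 and -0.14, is not among them because B3 lay between B1 and B2. Between cells with 3 or more and cells with 0 Pdgfra UMIs, the ratio of Twist1 was 1.47 in A3 and 0.575 in B3, that of Twist2 was 1.53 in A3 and 0.987 in B3, and that of Hand2 was 0.0992 in A3 and 1.11 in B3. The Hand2 value of A3 rests on 3 UMIs in 400 cells.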

How the results depend on the processing

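No paired analysis was possible because no map ties cells to samples and no result comes from a test. The number of genes called between sets stayed within 4 to 6 in ending A and 4 to 5 in ending B under all alternatives. Over all genes, having no CPM minimum moved the numbers called higher and lower in ending A to 4420 and 4570, and in ending B to 3110 and 3249. The number of called pairs, 1, was 0 with no cell filter, with cells of 3 other-lineage markers left out, at 1000 and at 3000 UMIs, with another seed, among cells with no cycling UMI and with Pdgfra bins as strata. It was 3 without the 5% of cells with the most UMIs, 2 in ending B alone and 3 in ending A alone at 5000 UMIs. The number of genes called by Pdgfra UMIs, 3, was 5 at 1000 UMIs and 6 in ending A alone, which rests on set A3, and 2 to 4 otherwise. The causes were not tested. Where the number of pairs stayed at 1, the pair was not always Sox6 with Zeb2: with called doublets kept, and with other lineages but not erythroid cells left out, it was Sox6 with Tbx3, more often together (1.27 and 1.28). Without set A3 the ratios by Pdgfra UMIs were 1.5 for Sox6, 1.57 for Tbx3 and 0.603 for Tcf21, against 1.88, 1.59 and 0.377. The Tcf21 ratio was 0.689 with 2 or more Pdgfra UMIs, 0.761 in ending A at 5000 UMIs and 0.866 between the 25% of cells with the most and the least Pdgfra per UMI, and was not called in any of them. None of the 3 genes called by Pdgfra UMIs changed direction. Added after seeing the data were the settings without the erythroid list, without A3, with ending A at 5000 UMIs and with 2 or more Pdgfra UMIs. Depth limits Hand1, Prrx1, Twist1 and Twist2, and shares of cells with a UMI moved for 9 of the 10 genes at 1000 UMIs and for all 10 at 3000.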

Other observations

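Counts of members in single cells differed between the sets at matched depth. Cells with a UMI of exactly 3 of the 10 genes made up 26.2% of A1 and 24.7% of A2 but 16% of A3, and 12.2%, 12.9% and 8.06% of B1, B2 and B3. Cells with none of them made up 16.1% of A3 and 26.8% of B3, against 6.35% of A1, 6.77% of A2, 13.1% of B1 and 15.6% of B2. Of the lists beyond transcription factors, 8 of 9 BMP ligand and response genes were at least 2-fold higher in A3, where 9.64% of all genes were, and 6 of 8 in B3, where 8.62% were, led by Bmp2 with log2 ratios of 4.25 and 2.31. The BMP list includes Id1 and Id3, which were already counted as higher among the transcription factors and Id inhibitors. Ednrb, an endothelin receptor gene in the glia list, was at 1770 CPM in A3 and 1670 CPM in B3, while the glial gene Sox10 was at 1.72 and 2.08 CPM. Relatives ran opposite in the same sets: Zeb2 was lower and Zeb1 higher in A3 and B3, and Snai2 lower and Snai1 higher (log2 ratios 2.1 and 1.24).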
